A study of Rattus norvegicus with 6 samples.

Results

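The genes described here build the sarcomere, the contractile unit of striated muscle, store and release its calcium, and supply its fast energy. They were chosen by name from a list of 48 genes, of which 45 matched a gene name in the deposited expression table of 34045 genes. The members were chosen with earlier results of these data known, so shares of all genes set beside their counts are no neutral background. Ttn, Tcap and Atp2a1 were not matched and are not analysed here. Bulk RNA sequencing measured their expression in the areas of calvarial defects, surgical gaps in the skull vault, in wild type male rats of the outbred Sprague-Dawley stock at week 4. The rats had been implanted with the CGG-Cit hydrogel (3 libraries) or with the CGG hydrogel (3 libraries). The labels do not spell out either name and do not state the age of the animals. Whether each library stands for its own rat is not labelled either, so the p-values reflect the spread among libraries, which could be technical. The comparison asks how the defect tissue differed between the 2 gels.

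In a sarcomere, thick filaments of myosin pull on thin filaments of actin. The thin filaments are anchored at the Z-disc and the thick filaments are held in register at the M-band. A nerve signal opens calcium channels in the sarcoplasmic reticulum at the triad, calcium switches the thin filament on, and a calcium pump and calcium-binding proteins end the contraction. Creatine kinase and myoglobin keep ATP and oxygen at hand. Most of these genes are restricted to skeletal and heart muscle, while some, such as the tropomyosin genes and desmin, are also used by smooth muscle and other cells.

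The libraries held 14744207 to 16224920 fragments assigned to genes. Values are FPKM (fragments per kilobase of gene and per unit of library size, as the authors scaled them), and whole reads were recovered from FPKM and gene length. The bone-forming cells that the labelled tissue should hold were represented in every library: no osteoblast gene of 7 was at 0, and Col1a1, the main collagen of bone, stood at 3401 to 5274 FPKM in CGG-Cit and at 5405 to 8623 FPKM in CGG. Fewer muscle cells and less muscle RNA per cell cannot be told apart in bulk tissue, and this holds for every result below.

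The promoters of 4 muscle genes are shown because their genes stand for the abundant, muscle-restricted members (Acta1, Ckm, Klhl41) and for a member that kept more of its level in CGG-Cit (Des). Each run holds 250 bases before and 50 bases after the start of the gene, 5′ to 3′ on the gene's strand, from RefSeq (build GRCr8). They lie at chr19:68784145-68784444 (minus strand, Acta1), chr1:88189211-88189510 (plus, Ckm), chr3:74841868-74842167 (plus, Klhl41) and chr9:84299376-84299675 (plus, Des). Capitals mark 4 motifs known from muscle promoters, searched on both strands: the E-box (CANNTG, bound by MyoD and related factors, the same on both strands), the MEF2 site, the CArG box (bound by SRF) and the MCAT element (CATTCC, bound by TEAD factors).
Acta1: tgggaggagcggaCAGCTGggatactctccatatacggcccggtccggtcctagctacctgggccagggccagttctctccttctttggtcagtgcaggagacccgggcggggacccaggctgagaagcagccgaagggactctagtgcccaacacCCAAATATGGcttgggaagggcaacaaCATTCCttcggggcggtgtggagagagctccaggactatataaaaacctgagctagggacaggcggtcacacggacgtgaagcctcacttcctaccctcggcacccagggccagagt
Ckm: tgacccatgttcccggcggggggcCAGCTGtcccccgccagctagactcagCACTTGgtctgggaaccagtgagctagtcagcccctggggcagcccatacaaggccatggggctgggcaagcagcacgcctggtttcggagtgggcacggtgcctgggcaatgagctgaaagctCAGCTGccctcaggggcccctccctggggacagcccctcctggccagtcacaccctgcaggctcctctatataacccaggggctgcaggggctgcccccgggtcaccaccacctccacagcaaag
Klhl41: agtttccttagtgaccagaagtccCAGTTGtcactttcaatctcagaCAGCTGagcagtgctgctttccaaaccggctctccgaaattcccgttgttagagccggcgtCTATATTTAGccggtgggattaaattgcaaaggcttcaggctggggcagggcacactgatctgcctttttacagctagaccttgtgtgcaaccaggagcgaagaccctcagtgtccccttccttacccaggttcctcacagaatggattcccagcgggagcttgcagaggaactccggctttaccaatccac
Des: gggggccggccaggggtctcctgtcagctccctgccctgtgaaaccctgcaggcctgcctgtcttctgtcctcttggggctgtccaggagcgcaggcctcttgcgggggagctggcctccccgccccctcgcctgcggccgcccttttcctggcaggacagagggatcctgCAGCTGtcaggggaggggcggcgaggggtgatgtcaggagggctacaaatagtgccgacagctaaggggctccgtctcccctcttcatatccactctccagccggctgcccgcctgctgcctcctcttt

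The Acta1 promoter held a CArG box that began 94 bases before the start, an MCAT element at 67 bases and an E-box at 237 bases. The Klhl41 promoter held a MEF2 site at 142 bases and E-boxes at 226 and 203 bases, and the Ckm promoter held E-boxes at 226, 199 and 75 bases. The Des promoter held an E-box at 79 bases. No marked motif overlapped another in these 4 promoters. Mybpc1 and Pvalb met the same rule for the thick filament and triad groups and are not printed. Their promoters held E-boxes and no MEF2 site, CArG box or MCAT element. Of the 37 members with a promoter entry, 35 had exactly 1 and were searched. An E-box was present in 29 of them (82.9%), against 72.1% of all 33469 promoters of the same length. A MEF2 site was present in 7 (20%, against 3.29% of all), a CArG box in 4 (11.4%, against 1.64%) and an MCAT element in 6 (17.1%, against 14.2%). The letters TATAAA, searched as well and not marked, were present in 4 (11.4%, against 8.80%). These are matches of letters, given as a description without a test.

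RNA of these genes was scarce in the CGG-Cit defects. The 3 CGG-Cit libraries, numbered 1 to 3, held 7275, 7550 and 19160 reads of the 45 members, or 0.0493%, 0.0503% and 0.119% of the assigned reads. The 3 CGG libraries held 255718, 184686 and 212667, or 1.70%, 1.14% and 1.39%. The widest 95% Wilson interval of these shares, in CGG 1, ran from 1.69% to 1.71%, and covers counting error only. The groups did not overlap. Among the 100 genes with the highest FPKM, 0 members appeared in any CGG-Cit library, against 5, 4 and 5 in CGG 1, 2 and 3.

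Of the 45 members, 43 averaged 0.5 FPKM or more across the libraries and entered a limma fit of log2(FPKM + 1) over all 15965 genes that did so. At an adjusted p under 0.05, 38 fell in CGG-Cit and 0 rose, where 9.78% of all genes tested fell and 7.75% rose. After rescaling to TPM, which raised the median of all genes to 0.16 (log2, CGG-Cit minus CGG), 39 members fell and 0 rose, where 5.94% of all genes fell and 13.8% rose. The median log2 fold change (CGG-Cit minus CGG) over the 43 was -3.48, against 0.002 over all genes tested. With the member at 0 reads in all CGG-Cit libraries set at its bound, the median was -3.50. For 14 of the 43 the mean in CGG-Cit lay below 0.5 FPKM, so they were tested only because they were high in CGG. These were Actc1, Lmod3, Myl2, Myl3, Myoz2, Myoz3, Csrp3, Myom1, Stac3, Jph1, Sln, Ckmt2, Klhl40 and Smpx. Their adjusted p-values below carry this limit and are not separate support for a fall. The levels in the 2 groups did not overlap, with CGG-Cit lower, for 40 of the 43 tested members, where 22.1% of all genes tested did so and 19.6% lay apart in the other direction. The 5 tested members that did not pass were Myl2, Myl3, Myoz2, Casq2 and Sln. The shares of all genes tested given here stand beside each count by role below.

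**Figure D1:**
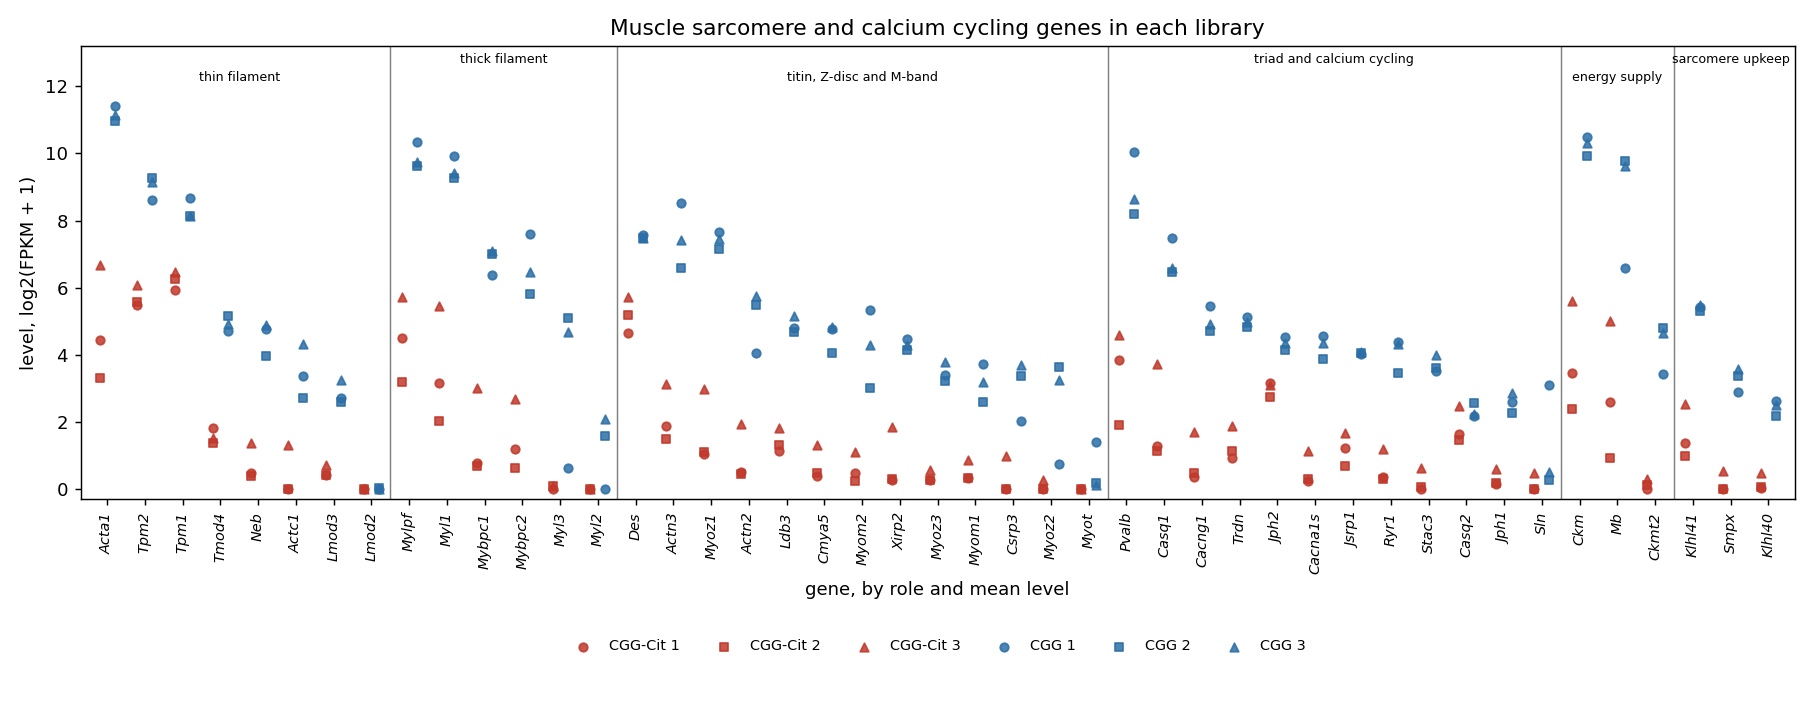
Level of each of the 45 members in every library, as log2(FPKM + 1), ordered by role and then by mean level; CGG-Cit libraries are red and drawn left of the CGG libraries in blue, and marker shapes give the replicate number. For 41 of the 45 genes every red point lies below every blue one; Lmod2, Myl2, Casq2 and Sln are the others.

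In the thin filament, all 7 tested members of 8 fell (log2 fold change -6.36 for Acta1 to -2.10 for Tpm1). Acta1, the actin of skeletal muscle fibres (ENSRNOG00000017786, listed at chromosome 19, 56674074 to 56677084, with no build), had 20.8, 8.89 and 102 FPKM in CGG-Cit 1, 2 and 3, against 2698, 1992 and 2278 FPKM in CGG 1, 2 and 3. Its mean was 53.1-fold lower in CGG-Cit, and the lowest CGG library was still far above the highest CGG-Cit library. Tpm2, the beta-tropomyosin that winds along actin, had 44.3, 47.1 and 67.4 FPKM in CGG-Cit, against 388, 622 and 571 FPKM in CGG (log2 fold change -3.29 ± 0.229 SE, adjusted p = 0.00173).

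Tpm1, the alpha-tropomyosin gene, had 60.0, 75.7 and 87.8 FPKM in CGG-Cit, against 407, 281 and 283 FPKM in CGG. Its mean was 4.34-fold lower, the smallest change in the thin filament group. Actc1, the actin of heart and of developing muscle, had 0 reads in CGG-Cit 1 and 2 and 1.48 FPKM in CGG-Cit 3, against 9.39, 5.59 and 19.1 FPKM in CGG. A count of 0 allows up to 0.132 FPKM of Actc1 in CGG-Cit 1 and 0.131 FPKM in CGG-Cit 2, taking 3 reads as the limit. The call for Actc1 (adjusted p = 0.0171) ended without CGG-Cit 1, CGG-Cit 2 or CGG 3 (0.0514, 0.0643 and 0.0583). Acta1 and Actc1 encode near-identical proteins, as do the tropomyosin genes in part, so reads shared between copies make their separate values uncertain.

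Neb, which encodes the giant ruler of the thin filament nebulin, averaged 0.776 ± 0.702 FPKM in CGG-Cit and 23.1 ± 7.44 FPKM in CGG (SD, n = 3 each). Tmod4, a cap of the pointed end of the thin filament, was 14.75-fold lower in CGG-Cit, and Lmod3, which nucleates actin there, was 14.01-fold lower. Lmod2, the leiomodin of heart muscle, was under the filter on low values, with 0 reads in CGG-Cit and a total of 1 read in CGG.

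In the thick filament, 4 of 6 members fell. Mylpf, the fast regulatory light chain of myosin (ENSRNOG00000017645, listed at chromosome 1, 198655742 to 198658583), had 21.5, 8.24 and 52.4 FPKM in CGG-Cit, against 1308, 787 and 860 FPKM in CGG. Myl1, the fast essential light chain, had 7.99, 3.13 and 43.2 FPKM in CGG-Cit, against 962, 618 and 688 FPKM in CGG. These 2 light chains were 36.0-fold and 41.7-fold lower in CGG-Cit, and in both CGG-Cit 3 was the highest CGG-Cit library. The call for Myl1 (adjusted p = 0.0108) ended without CGG 3 (0.0519).

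Mybpc1 and Mybpc2 encode the slow and the fast form of myosin binding protein C. Mybpc1 had 0.706, 0.618 and 7.02 FPKM in CGG-Cit, against 83.0, 129 and 137 FPKM in CGG. Mybpc2 had 1.29, 0.567 and 5.42 FPKM in CGG-Cit, against 192, 55.5 and 86.9 FPKM in CGG. The 2 genes fell by 5.35 and 5.11 on the log2 scale (adjusted p = 0.00717 and 0.00818), and CGG 1 was the lowest CGG library for Mybpc1 and the highest for Mybpc2.

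Myl3, a light chain of slow fibres and heart, had 0, 0.0718 and 0.0661 FPKM in CGG-Cit, or 2 reads in all, against 0.556, 33.2 and 24.5 FPKM in CGG. The groups did not overlap, but CGG 1 held only 8 reads, and the gene did not pass (log2 fold change -3.40 ± 1.11 SE, adjusted p = 0.0788). By reads summed over each group the ratio was 412-fold, with an exact 95% interval of 114 to 3408 that covers counting error only. Without CGG 1 Myl3 passed (adjusted p = 0.00308). Myl2, the regulatory light chain of the same muscles, had 0 reads in all CGG-Cit libraries and in CGG 1, against 1.999 and 3.28 FPKM in CGG 2 and 3. Its CGG mean was at least 13.4-fold above the level that 3 reads over the whole CGG-Cit group would give. It did not pass with all libraries (adjusted p = 0.140) but did without CGG 1 (0.0183).

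At the Z-disc and M-band, 11 of 12 tested members fell, at log2 fold changes of -5.71 to -2.31. Des, the intermediate filament desmin that ties Z-discs together, had 24.4, 35.5 and 51.7 FPKM in CGG-Cit, against 187, 178 and 176 FPKM in CGG. It was the most even member of this group in CGG, with a coefficient of variation of 3.30%, and its mean was 4.85-fold lower in CGG-Cit. Actn3, the alpha-actinin of fast fibres, had 2.71, 1.80 and 7.77 FPKM in CGG-Cit, against 365, 94.8 and 172 FPKM in CGG. Actn2, the alpha-actinin of all striated fibres, had 0.439, 0.370 and 2.84 FPKM in CGG-Cit, against 15.8, 44.3 and 52.8 FPKM in CGG, and its call (adjusted p = 0.01102) ended without CGG 3 (0.0517).

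Myoz1, which binds calcineurin at the Z-disc of fast fibres, had 1.07, 1.16 and 6.94 FPKM in CGG-Cit, against 200, 143 and 176 FPKM in CGG. Its mean was 56.5-fold lower in CGG-Cit. Myoz2, its relative in slow fibres and heart, had 0, 0 and 0.203 FPKM in CGG-Cit, against 0.695, 11.6 and 8.62 FPKM in CGG. The groups did not overlap, and Myoz2 missed the threshold with all libraries (adjusted p = 0.0584) and passed without CGG 1 (0.00427). Myoz3, the third relative, was 33.6-fold lower in CGG-Cit (adjusted p = 0.0012). It averaged 0.305 FPKM in CGG-Cit and was tested only through its level in CGG.

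Of the others in this group, Ldb3, Xirp2, Cmya5, Myom1, Myom2 and Csrp3 fell (log2 fold changes of -3.82 to -2.65), and their means were 16.5-fold to 37.3-fold lower in CGG-Cit. Myom1 and Myom2 encode myomesins of the M-band, Ldb3 a PDZ protein of the Z-disc and Csrp3 the muscle LIM protein. The call for Csrp3, with 0 reads in CGG-Cit 1 and 2, ended when CGG-Cit 1, CGG-Cit 2, CGG 2 or CGG 3 was left out (adjusted p = 0.0562 to 0.0704) and with voom on whole reads (0.0541), and that for Myom2 ended without CGG-Cit 2 or CGG 3 (0.0593 and 0.0626). Myot, a Z-disc protein gene, was under the filter on low values, with 0 reads in CGG-Cit and 1.65, 0.136 and 0.0835 FPKM in CGG. A second gene, Dcp2, with a mean of 0.654 FPKM, is listed across the span of Myot on the same strand, so their reads may not be told apart.

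At the triad and in calcium handling, 10 of 12 members fell. Ryr1, the calcium release channel, averaged 0.614 ± 0.607 FPKM in CGG-Cit and 16.3 ± 5.56 FPKM in CGG. Cacna1s, the voltage sensor that opens it, averaged 0.548 ± 0.586 and 18.5 ± 4.46 FPKM in CGG-Cit and CGG. Cacng1, a further subunit of this channel, had 0.302, 0.398 and 2.24 FPKM in CGG-Cit, against 42.9, 25.3 and 29.3 FPKM in CGG. Stac3, an adaptor needed for the coupling, was 63.1-fold lower in CGG-Cit, Trdn, the anchor triadin, 19.2-fold lower and Jsrp1, a junctional protein gene, 11.4-fold lower.

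Pvalb, the calcium buffer parvalbumin of the fastest fibres (ENSRNOG00000006471, listed at chromosome 7, 119429019 to 119441487), had 13.3, 2.77 and 23.1 FPKM in CGG-Cit, against 1057, 292 and 396 FPKM in CGG. Its mean was 44.6-fold lower in CGG-Cit, and CGG 1 was far above the other CGG libraries. The call for Pvalb (adjusted p = 0.0113) ended without CGG 3 (0.0517). Casq1, the main calcium store of fast fibres, had 1.45, 1.19 and 12.3 FPKM in CGG-Cit, against 176, 88.3 and 96.2 FPKM in CGG (log2 fold change -4.80 ± 0.697 SE, adjusted p = 0.0128), and its call ended without CGG-Cit 2 or CGG 3 (0.0510 and 0.0547). Casq2, the calsequestrin of heart and slow fibres, had 2.12, 1.77 and 4.52 FPKM in CGG-Cit, against 3.57, 4.91 and 3.74 FPKM in CGG. The Casq2 levels of the groups overlapped through CGG-Cit 3 and the gene did not pass (log2 fold change -0.47 ± 0.276 SE, adjusted p = 0.267), while without CGG-Cit 3 it did (-0.78, adjusted p = 0.0349).

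Jph1 and Jph2 encode junctophilins, which hold the triad membranes together, Jph1 in skeletal muscle and Jph2 in all muscle. Jph1 had 0.117, 0.131 and 0.534 FPKM in CGG-Cit, against 5.07, 3.84 and 6.34 FPKM in CGG. Jph2 had 7.94, 5.70 and 7.59 FPKM in CGG-Cit, against 21.95, 16.5 and 19.5 FPKM in CGG, and fell by 1.33 ± 0.156 (SE, adjusted p = 0.00757). Sln, the small peptide sarcolipin that inhibits the calcium pump, had 0, 0 and 0.400 FPKM in CGG-Cit, against 7.57, 0.215 and 0.441 FPKM in CGG. The Sln levels overlapped, 36 of its 39 reads in CGG came from CGG 1, and it did not pass (adjusted p = 0.305).

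All 3 energy genes fell. Ckm, the creatine kinase of the muscle cytosol (ENSRNOG00000016837, listed at chromosome 1, 80321585 to 80331841), had 10.01, 4.19 and 47.7 FPKM in CGG-Cit, against 1436, 977 and 1280 FPKM in CGG. A gene listed across it on the opposite strand had a mean of 0.141 FPKM. Ckmt2, the creatine kinase of muscle mitochondria, had 0, 0.103 and 0.238 FPKM in CGG-Cit, or 7 reads in all, against 9.70, 27.1 and 24.4 FPKM in CGG, and was 179-fold lower in CGG-Cit. Mb, the oxygen store myoglobin, had 5.12, 0.890 and 31.3 FPKM in CGG-Cit, against 94.6, 882 and 793 FPKM in CGG. The Mb groups did not overlap, but CGG 1 lay closer to CGG-Cit 3 than to the other CGG libraries on the linear scale. Its call (adjusted p = 0.0264) ended when CGG-Cit 1, CGG-Cit 2, CGG 2 or CGG 3 was left out (adjusted p = 0.0725 to 0.0933).

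Klhl40, Klhl41 and Smpx, which encode 2 Kelch proteins that stabilise thin filament proteins and a small cytoskeletal muscle protein, also fell. Klhl41 (ENSRNOG00000007461, listed at chromosome 3, 55910177 to 55923303) had 1.599, 0.990 and 4.76 FPKM in CGG-Cit, against 41.7, 38.8 and 43.8 FPKM in CGG. Klhl40 had 0.0289, 0.0572 and 0.394 FPKM in CGG-Cit, against 5.17, 3.56 and 4.64 FPKM in CGG. Smpx had 0, 0 and 0.468 FPKM in CGG-Cit, against 6.46, 9.47 and 10.97 FPKM in CGG. None of the 3 genes overlapped between the groups, and their means were 16.9-fold to 57.5-fold lower in CGG-Cit. Of all genes tested, 9.78% fell and 22.1% lay apart with CGG-Cit lower.

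The 3 CGG-Cit libraries did not hold equal levels. Set against the mean of the CGG libraries, the median member stood at 1.17%, 0.983% and 6.62% in the libraries CGG-Cit 1, 2 and 3. CGG-Cit 3 was the highest CGG-Cit library for 39 of the 45 members. Members with 0 reads numbered 11, 8 and 3 in CGG-Cit 1, 2 and 3, against 2, 0 and 1 in CGG 1, 2 and 3. Without CGG-Cit 3 the count of members that fell was 39.

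**Figure D2:**
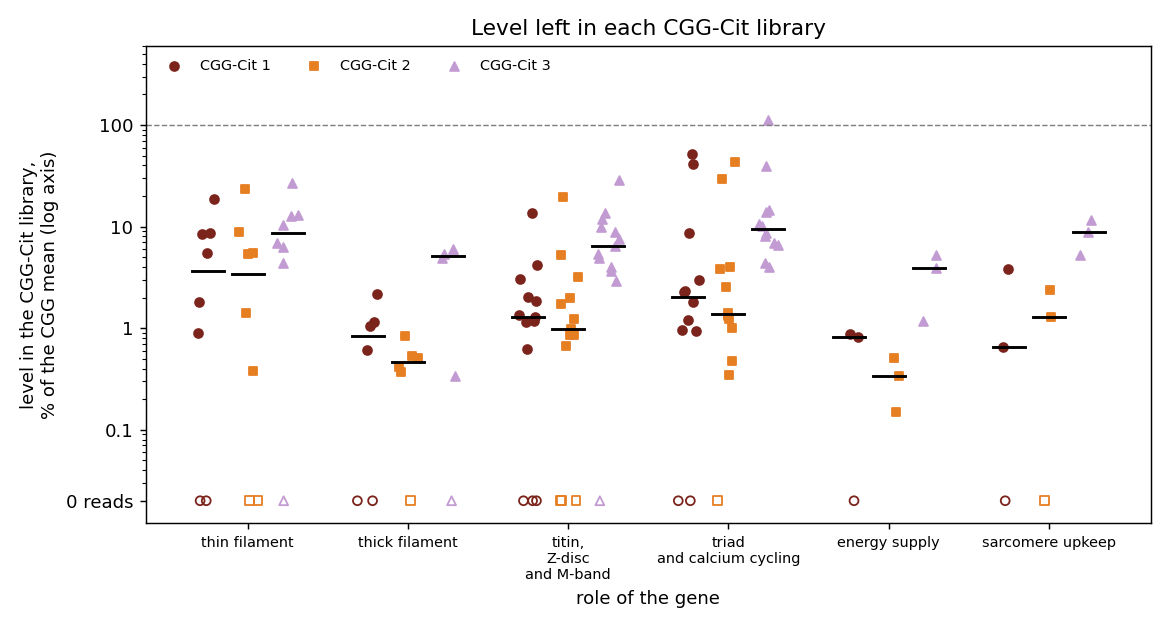
Level of each member in CGG-Cit 1, 2 and 3 as a percentage of its mean over the CGG libraries (log axis), by role; short black lines are medians, open symbols at the bottom are members with 0 reads and the dashed line is the CGG mean. The median of the thick filament genes was 0.832%, 0.461% and 5.10% in CGG-Cit 1, 2 and 3, and that of the triad genes 2.05%, 1.37% and 9.43%.

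How much was left differed among the members. Over the 3 CGG-Cit libraries 31 of the 45 stood under 5% of their CGG mean and 5 stood above 10%: Casq2 at 68.9%, Jph2 at 36.6%, Tpm1 at 23.0%, Des at 20.6% and Tpm2 at 10.04%. These 5 were singled out after their values were seen. Genes of smooth muscle, which uses tropomyosins, desmin and Jph2 as well, were counted for comparison. Of 9 smooth muscle genes 8 were tested, with a median log2 fold change of 0.42. Synm (synemin, an intermediate filament protein that pairs with desmin in striated muscle too) fell and 0 rose. This count is near the share of all genes tested, of which 9.78% fell and 7.75% rose. Acta2, the smooth muscle actin, had 113, 94.4 and 143 FPKM in CGG-Cit, against 52.6, 198 and 30.6 FPKM in CGG, and Tagln, a smooth muscle actin-binding protein, had 103, 93.3 and 112 FPKM in CGG-Cit, against 57.7, 177 and 44.9 FPKM in CGG. Both overlapped between the groups (adjusted p = 0.443 and 0.586). The summed level of the 9 genes was 243 to 335 FPKM in CGG-Cit and 117 to 489 FPKM in CGG, and no smooth muscle gene was at 0 in any library. The part of these cells in what was left of Tpm1, Tpm2, Des and Jph2 was not tested.

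**Figure D3:**
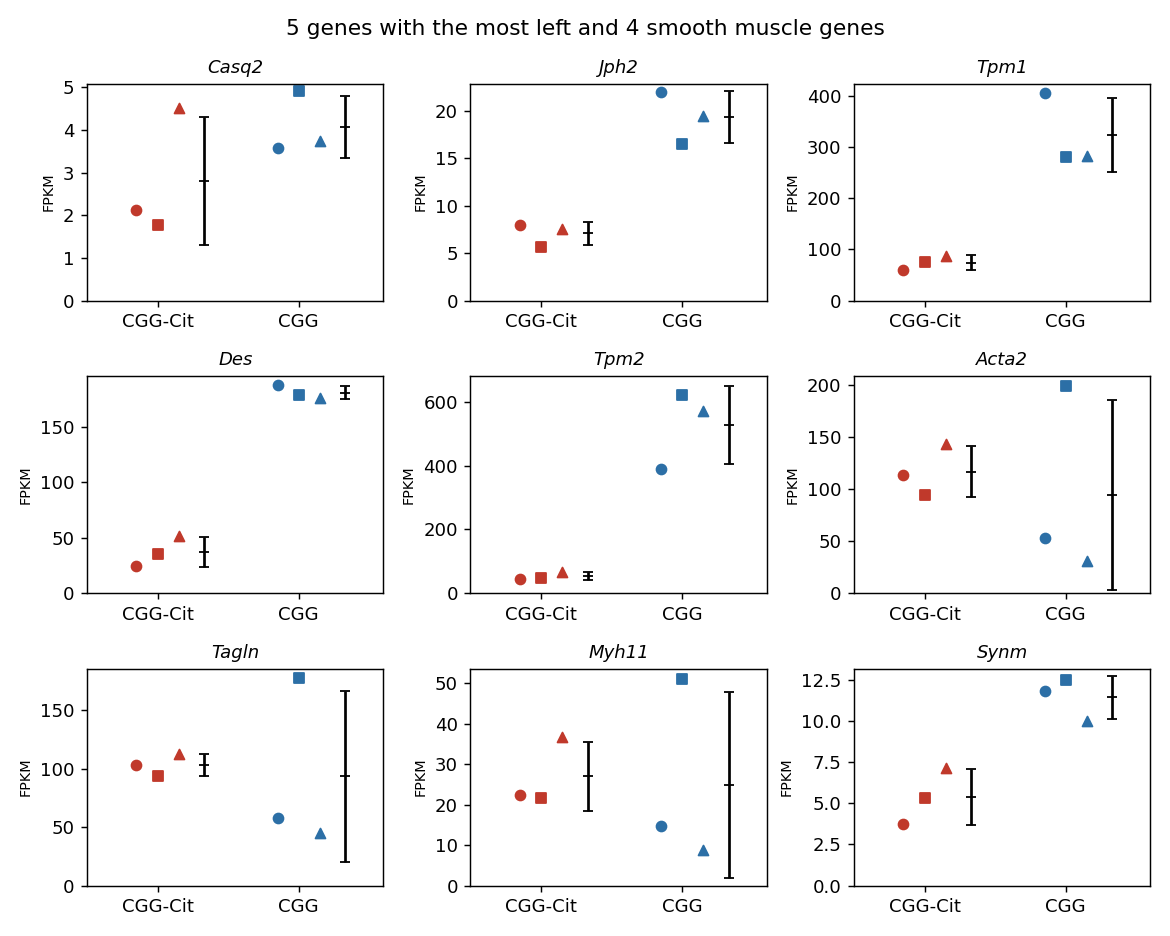
FPKM of the 5 members with the most left in CGG-Cit and of 4 smooth muscle genes (Acta2, Tagln, Myh11, Synm), in CGG-Cit (red) and CGG (blue) libraries; marker shapes give the replicate number, and the dash and bar beside the points are the mean and SD of 3 libraries. The groups are apart for Jph2, Tpm1, Des, Tpm2 and Synm and overlap for Casq2, Acta2, Tagln and Myh11, in each of which CGG 2 is the highest library.

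The CGG libraries differed from each other in which members were high. CGG 1 was more than 2-fold below both other CGG libraries for 7 members: Myl2, Myl3, Actn2, Myoz2, Csrp3, Ckmt2 and Mb, most of them known from slow, oxidative or heart muscle. It was more than 2-fold above both for 6: Mybpc2, Actn3, Pvalb, Myom2, Sln and Myot, of which Mybpc2, Actn3 and Pvalb are known from fast fibres. For Myl3 and Mb the level in CGG 1 was 0.0193 and 0.113 times the mean of CGG 2 and CGG 3, and for Pvalb and Actn3 it was 3.07 and 2.74 times that mean. The other 32 members did neither, among them Acta1 (1.26 times) and Ckm (1.27 times). Myh7, the myosin heavy chain of slow fibres and heart, which was looked up after these values were seen, was near 0 in all libraries (0 to 0.0302 FPKM in CGG-Cit and 0.0212, 0.054 and 0.577 FPKM in CGG). This pattern was noticed in the data, and with 1 library against 2 of the same group it has no test.

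**Figure D4:**
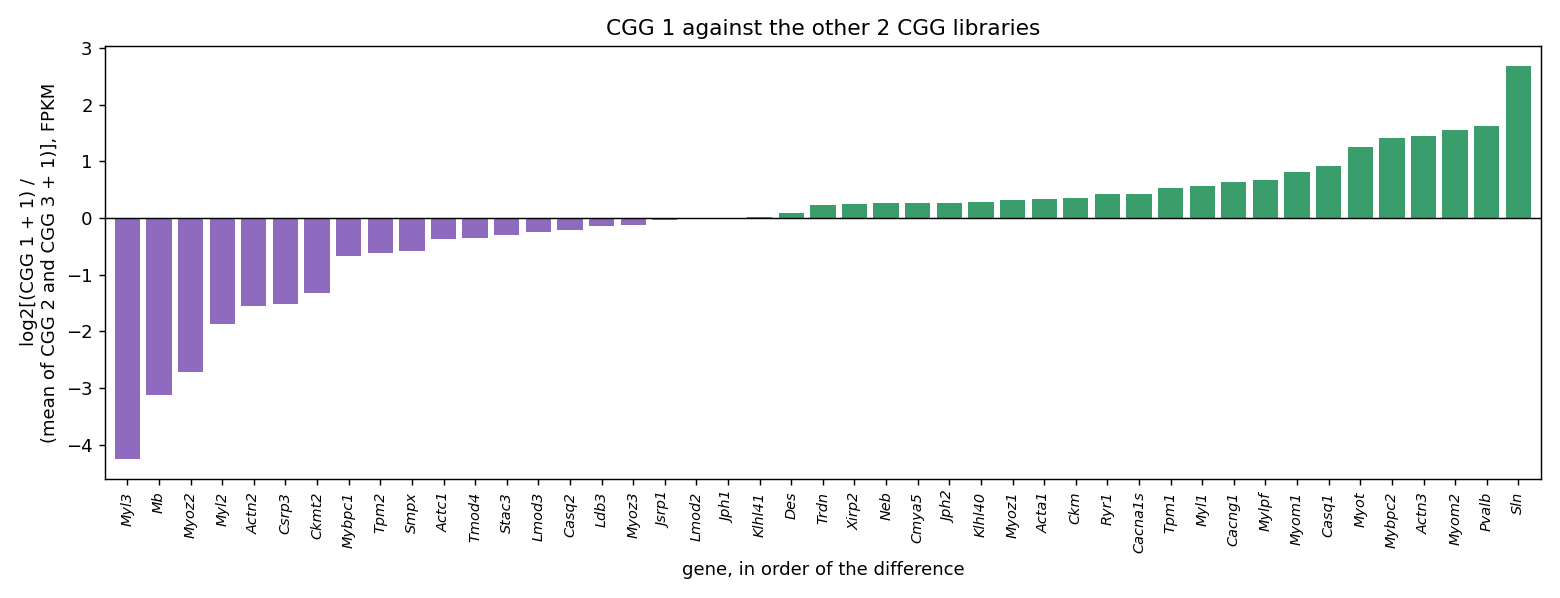
Difference between CGG 1 and the mean of CGG 2 and CGG 3 for each member, on the log2(FPKM + 1) scale; purple bars are genes lower in CGG 1 and green bars genes higher in CGG 1. Myl3 (-4.26), Mb (-3.13) and Myoz2 (-2.71) lie at the low end and Sln (2.69), Pvalb (1.62) and Myom2 (1.55) at the high end.

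Ratios between related members were compared for 10 pairs, with an exact two-sided permutation test that cannot go below p = 0.10 with 3 libraries against 3, so no pair could pass. The log2 ratio of Casq1 to Casq2 was 0.19 ± 0.927 in CGG-Cit and 4.52 ± 0.692 in CGG (SD, n = 3 each; exact p = 0.10, adjusted p = 0.167 over 10 pairs), with no overlap. That of Jph1 to Jph2 was -2.68 ± 0.276 in CGG-Cit and -1.75 ± 0.238 in CGG (exact p = 0.10, adjusted p = 0.167), also with no overlap. Jph1 lay under 1 FPKM in all CGG-Cit libraries, and the size of this difference depended on the pseudocount (-0.93 with 1, -1.50 with 0.5 and -2.56 with 0.1). The fast and slow binding proteins Mybpc2 and Mybpc1 had a log2 ratio of 0.02 ± 0.376 in CGG-Cit and -0.22 ± 1.26 in CGG (exact p = 0.80, adjusted p = 0.80), and that of Actn3 to Actn2 was 1.196 ± 0.166 in CGG-Cit and 2.40 ± 1.79 in CGG (exact p = 0.30, adjusted p = 0.333). The Actn3 to Actn2 difference was -1.21 with a pseudocount of 1 and -0.50 with 0.1. That of Casq1 to Casq2 was -4.32 with 1 and -4.67 with 0.1. In CGG 1, 2 and 3 the ratio of Actn3 to Actn2 in linear FPKM was 23.1, 2.14 and 3.26, and that of Myl1 to Myl3 was 1731, 18.6 and 28.1. The other 6 pairs each hold a member with 0 reads in at least 1 CGG-Cit library. Their differences are not described, except how that of Ckm to Ckmt2 depended on the pseudocount, given below.

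Genes of the same structures outside the 45 were counted from lists, which were also chosen with earlier results of these data known. Of 19 tested further sarcomere and Z-disc genes 14 fell and 0 rose, where 9.78% of all genes tested fell and 7.75% rose. Fhl1, a LIM domain protein and the most abundant of them, had 21.9, 26.6 and 31.3 FPKM in CGG-Cit, against 44.2, 171 and 172 FPKM in CGG, again with CGG 1 lowest of the CGG libraries. Fhl3, a LIM domain relative, fell by 1.22. The 5 that did not pass were Pdlim5, Hspb7, Flnc, Obsl1 and Myom3.

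Of 17 tested further genes of excitation and calcium handling 10 fell and 0 rose. This count and that of the energy genes stand beside 9.78% of all genes tested that fell and 7.75% that rose. Fkbp1a, which binds the release channel in many tissues, had 102, 111 and 105 FPKM in CGG-Cit, against 80.7, 103 and 85.4 FPKM in CGG (adjusted p = 0.172). Atp2a2, the calcium pump of slow fibres, heart and cells outside muscle, had 43.7, 46.0 and 45.7 FPKM in CGG-Cit, against 36.9, 42.7 and 43.0 FPKM in CGG (adjusted p = 0.308). Of 10 tested further energy genes 9 fell: Eno3, the muscle enolase, had 10.8, 6.17 and 17.8 FPKM in CGG-Cit, against 329, 263 and 333 FPKM in CGG. Ckb, the creatine kinase of brain and other tissues, was the exception, with 365, 511 and 466 FPKM in CGG-Cit, against 338, 430 and 391 FPKM in CGG (adjusted p = 0.407).

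Among genes of the dystrophin complex and fibre membrane, Sgca, the alpha-sarcoglycan, fell by 2.26 and Sgcb, the beta-sarcoglycan, by 0.62 on the log2 scale, and Lama2, a laminin chain, rose by 0.74 (adjusted p = 0.00415, 0.0337 and 0.0208). Dag1, the dystroglycan gene, had 41.0, 49.8 and 51.7 FPKM in CGG-Cit, against 34.8, 41.1 and 35.7 FPKM in CGG (adjusted p = 0.0959). At the neuromuscular junction 5 of 9 genes were tested. Chrnb1, an acetylcholine receptor subunit, Rapsn and Dok7 fell, where 9.78% of all genes tested did so. The most abundant gene of that list, Lrp4, had 8.88, 18.7 and 18.7 FPKM in CGG-Cit, against 23.4, 22.9 and 20.6 FPKM in CGG (adjusted p = 0.183).

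Of 7 tendon genes, Thbs4, a matrix protein of tendon and muscle, fell by 1.55 and 0 rose. This count is near the share of all genes tested that fell, 9.78%. Tendon genes summed to 159 to 214 FPKM in CGG-Cit and 105 to 233 FPKM in CGG. Of 9 heart muscle genes 3 were tested, and Myl4, a light chain of atrium and developing muscle, fell by 1.74. Of all genes tested, 9.78% fell. Tnnt2 lay in the other direction, at 2.54, 1.29 and 0.542 FPKM in CGG-Cit, against 0.570, 0.212 and 0.380 FPKM in CGG (limma adjusted p = 0.144). Sbk2 had 0.0835, 0.0275 and 0.101 FPKM in CGG-Cit, against 0.213, 2.99 and 4.22 FPKM in CGG (limma adjusted p = 0.101). The heart genes not tested, Myh6, Tnni3, Nppa, Nppb, Myl7 and Mybpc3, stood at 0 to 0.718 FPKM in every library. The heart list summed to 2.87 to 5.14 FPKM in CGG-Cit and 11.7 to 15.4 FPKM in CGG. Most of the CGG sum came from Myl4 (13.7, 10.8 and 6.86 FPKM in CGG 1, 2 and 3) and Sbk2. The sum therefore does not describe the heart list as a whole. Of the 7 osteoblast genes, Bglap, Ibsp, Sp7 and Alpl fell and 0 rose, where 9.78% of all genes tested fell and 7.75% rose. The osteoblast list summed to 4200 to 7180 FPKM in CGG-Cit and 8592 to 12699 FPKM in CGG. The part of the osteoblast difference in the muscle result was not tested.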

How the data were processed

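The 3 CGG-Cit and 3 CGG libraries were sequenced in read pairs, per the labels' protocols, and groups were taken from the sample titles. The authors deposited FPKM per gene with a gene length. Per the submitters' processing notes, which assign no step, the tools were featureCounts 1.5.0-p3, HISAT2 2.0.5 and DESeq2 1.20.0, and mRatBN7.2 was the genome. Whether strand was counted is not given in the sources used here. In the table, the last gene end on chromosome 1, 282724300, lies beyond that of the GRCr8 gene table (270492571), so coordinates are printed with no build. FPKM times length gave whole multiples of 1 read in 100% of values above 0, within 0.01 reads, and recovered totals of 14744207 to 16224920 fragments per library, which set the precision.

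Tests used limma 3.58.1 in R 4.3.3 (lmFit, then eBayes with trend) on log2(FPKM + 1) of the 15965 genes that averaged 0.5 FPKM or more, with no replicate term and with Benjamini-Hochberg adjustment over all of them; the script was tested on simulated data. Fold changes are CGG-Cit minus CGG, and the pseudocount understates those of low genes. Folds without "log2" are ratios of mean FPKM. Tables were made with Python 3.11.15 and pandas 2.3.3. The members and lists were chosen with earlier results of these data known. Levels in every library are given, in each role group, for the 3 members with the highest mean, the member with the smallest change, members that did not pass and members of the pairs described. Of other lists, some of the 2 most abundant genes and of the exceptions are named, not all with levels. Further genes named were chosen after their values were seen. Alternatives were pseudocounts of 0.1 and 0.5, no filter, a filter at 2 FPKM, TPM, median-of-ratios and quantile scaling, voom on whole reads, the replicate number as a block and each library left out. A pair of the list with an unmatched gene, Atp2a1 and Sln, was not compared. 1 further result is not reported here.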

Additional observations from a re-analysis of the deposited data

How the results depend on the processing

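Over 15 alternative fits 30 of the 38 members that fell passed every time, no tested member changed direction, and 0 members rose. The count of members that fell was 37 to 40 under other pseudocounts, filters and scalings, under voom and under the replicate block, and 30 to 41 when 1 library was left out (41 without CGG 1, 33 without CGG-Cit 2 and 30 without CGG 3). With 1 library left out, 1.19% (without CGG 3) to 10.2% (without CGG-Cit 3) of all genes fell. In the same fits, further sarcomere genes that fell numbered 10 to 15, those of excitation and calcium 9 to 10, and those of energy 7 to 9; a filter at 2 FPKM left 8 of excitation and calcium. The median log2 fold change of the members, -3.48, was -4.95 with a pseudocount of 0.1 and -5.30 with voom on whole reads, which add less to low values. The calls for Myl1, Actn2 and Pvalb ended without CGG 3 (adjusted p = 0.0517 to 0.0519), those for Casq1 and Myom2 without CGG 3 or CGG-Cit 2 (0.0510 to 0.0626) and that for Actc1 without CGG 3, CGG-Cit 1 or CGG-Cit 2 (0.0514 to 0.0643). With a pseudocount of 0.1 Myl3 and Myoz2 passed (0.0391 and 0.0300), and Myoz2 did also with 0.5 (0.0459) and after rescaling to TPM (0.0372).

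The difference in log2 ratio between CGG-Cit and CGG reversed for Ckm to Ckmt2 with a pseudocount of 0.1 (0.0445, against -2.29 with 1), and for Mybpc2 to Mybpc1 it ranged from -0.256 to 0.943 when 1 library was left out, against 0.236 with all. The replicate block left the count of members that fell at 38. Deviations of same-numbered libraries correlated at -0.0956, 0.00165 and -0.0779, and those of differently numbered libraries at -0.0587 to 0.125. These values show no pairing by replicate number, but with 3 libraries per group they cannot establish that there was none. Depth limits what can be said of members at 0 to 3 reads in CGG-Cit (Myl2, Myl3, Sln, Lmod2 and Myot).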

Other observations

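Relatives of the members that serve cells outside muscle were looked up after the members' values were seen. Actb, the actin of all cells, averaged 2566 ± 336 FPKM in CGG-Cit and 2607 ± 55.7 FPKM in CGG (SD, n = 3 each; limma adjusted p = 0.905), and Actg1, its close copy, 831 ± 116 FPKM in CGG-Cit and 773 ± 79.7 FPKM in CGG (adjusted p = 0.671). Tpm3, a tropomyosin of slow fibres and of cells outside muscle, had 209, 160 and 168 FPKM in CGG-Cit, against 147, 169 and 174 FPKM in CGG (adjusted p = 0.533). Tpm4, a tropomyosin of cells outside muscle, had 434, 400 and 363 FPKM in CGG-Cit, against 298, 343 and 313 FPKM in CGG; the groups did not overlap and the gene did not pass (log2 fold change 0.33 ± 0.112 SE, adjusted p = 0.0903). Myh1, a myosin heavy chain of fast fibres, had 1.497, 0.839 and 7.55 FPKM in CGG-Cit, against 246, 115 and 177 FPKM in CGG. It fell by 5.66 on the log2 scale, and CGG-Cit 3 was the highest CGG-Cit library for it as well.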
